A study of Homo sapiens with 6 samples.

Results

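Interferon-stimulated genes and their regulators were examined in T24, a long-established line of human bladder cancer cells, with and without ox-LDL. Ox-LDL is low-density lipoprotein, the main carrier of cholesterol in plasma, in an oxidized form. The members are a list of 46 gene symbols drawn from general knowledge of the interferon response, and they were matched by the platform's gene symbol. A probe set was found for 45 of the 46, out of 17687 named genes on the array, and the remaining member, STAT2, was not analysed here. The matching uses no measured value, but the list was chosen with earlier results of these data known.

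Type I and type III interferons are secreted proteins that tell a cell that viral nucleic acid has been sensed. They bind receptors whose attached kinases, JAK1 and TYK2, activate STAT proteins, and a complex of STATs with IRF9 binds a DNA element called the ISRE (interferon-stimulated response element) and switches on a large set of genes. Type II interferon, interferon gamma, acts through STAT dimers at another element, the GAS (gamma-activated site). Many of the induced genes block virus entry, translation or budding, and tumour cells can express them at a low level without infection.

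All 6 samples came from T24 cells grown in medium with 10% serum and then kept without serum for 12 h. The vehicle group (3 samples) received vehicle and the ox-LDL group (3 samples) received ox-LDL at 20 µg/mL, each for 24 h, and each sample was hybridised to 1 single-colour array. T24 is 1 cell line, and the labels name no separate cultures within a group; the spread behind each p-value is therefore that of these samples alone and may be technical. One free-text label described the same arrays as control and G9a siRNA, against all other labels; EHMT2, which encodes G9a, had a log2 difference of 0.37 (ox-LDL minus vehicle, limma adjusted p = 0.125) and so did not pass in either direction.

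The third vehicle array stood apart from the rest. Across probe sets it correlated with each other array at 0.988 or less, against 0.992 to 0.997 among the other 5 arrays, and its 5 background probe sets richest in G and C averaged 7.90 against 7.32 to 7.43. Counts and calls below are therefore also given without it. The 95th percentile of the negative control probe sets was a log2 value of 5.21. Of 14 urothelial and epithelial markers measured, 11 lay above that level, among them the keratins KRT7, KRT8 and KRT18 at 11.8 or above on every array, and 3 (UPK1B, UPK3A and CDH1) did not exceed it in either group. None of the 14 passed in limma or with an unmoderated t statistic, and 1 had an unadjusted p under 0.05; without vehicle replicate 3, KRT7 passed as higher (limma adjusted p = 0.0290). PTPRC, the defining surface protein of leukocytes, and CLEC4C and IL3RA, which mark the plasmacytoid dendritic cells that make most circulating interferon, were also at or below that level. Other markers of the same lists lay above it in both groups. These were CD3E, CD79A, CD14, ITGAM and NKG7 among the leukocyte markers and GZMB and TCF4 among the plasmacytoid markers. Of 11 leukocyte, 4 plasmacytoid dendritic cell, 7 fibroblast and 8 endothelial markers measured, none passed in limma or with an unmoderated t statistic, and 2, 1, 2 and 2 of them had an unadjusted p under 0.05. At or below the negative control level in both groups were 6, 2, 2 and 3 of them. Over all 21448 probe sets tested, 5598 had an unadjusted limma p under 0.05. The mean level of the leukocyte markers was 5.28, 5.37 and 5.51 with vehicle and 5.22 to 5.25 with ox-LDL. That of the plasmacytoid markers was 6.15 to 6.47 and 6.22 to 6.24, that of the fibroblast markers 5.55 to 5.92 and 5.52 to 5.57, and that of the endothelial markers 5.60 to 6.06 and 5.50 to 5.60. The third vehicle array had the highest mean of each list, and without it NKG7 passed as lower and TCF4 as higher. The part of these markers in the results was not tested. In bulk RNA, fewer cells of a kind and less RNA per cell cannot be told apart.

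With ox-LDL, 5 of the 45 members rose and 1 fell, and the other 39 did not pass. GBP1 and GBP2, guanylate-binding GTPases that attack membranes of intracellular pathogens, rose 2.28-fold and 1.72-fold, and SAMD9L, a cytosolic translation inhibitor and antiviral protein, rose 2.04-fold. BST2, also called tetherin, which holds budding virus particles on the cell surface, rose 1.55-fold, and PARP9, a macrodomain protein that works with the ubiquitin ligase DTX3L, rose 1.50-fold. IRF9, the DNA-binding subunit of the interferon-activated STAT complex, fell. Well-known interferon-induced antiviral genes such as ISG15, MX1, RSAD2, OAS1 and IFIT1 were not among those that passed. RSAD2 lay at or below the negative control level in both groups, which limits what its values can show. IFIT1 had all 3 ox-LDL arrays above the vehicle arrays. Its log2 difference was 0.27 (95% confidence interval 0.02 to 0.52, limma unadjusted p = 0.0401, adjusted p = 0.171).

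A gene was called when its limma p-value, adjusted by the Benjamini-Hochberg method over all 21448 probe sets tested, was under 0.05. Over all probe sets 6.77% were called, 3.48% as higher and 3.29% as lower, against 13.3%, 11.1% and 2.22% of the members. An unadjusted limma p under 0.05 was found for 15 of the 45 members, against 5598 of the 21448 probe sets. The members' median log2 difference was 0.14, against -0.03 over all probe sets, and 30 of the 45 differences were above 0. In 19 members (42.2%) all 3 ox-LDL arrays lay above all 3 vehicle arrays, and in 5 (11.1%) they all lay below; over all probe sets these shares were 19.1% and 17.7%. At or below the level of the negative controls in both groups were 3 of the 45 members, against 4599 of the 21448 probe sets. In a fit of the probe sets above the median level alone, 30.3% of the 33 members there were called, against 24.3% of those probe sets. The part of signal level in these shares was not tested. All these shares are descriptions and no test of the list was made. The list itself was chosen with earlier results of these data known.

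**Figure D1:**
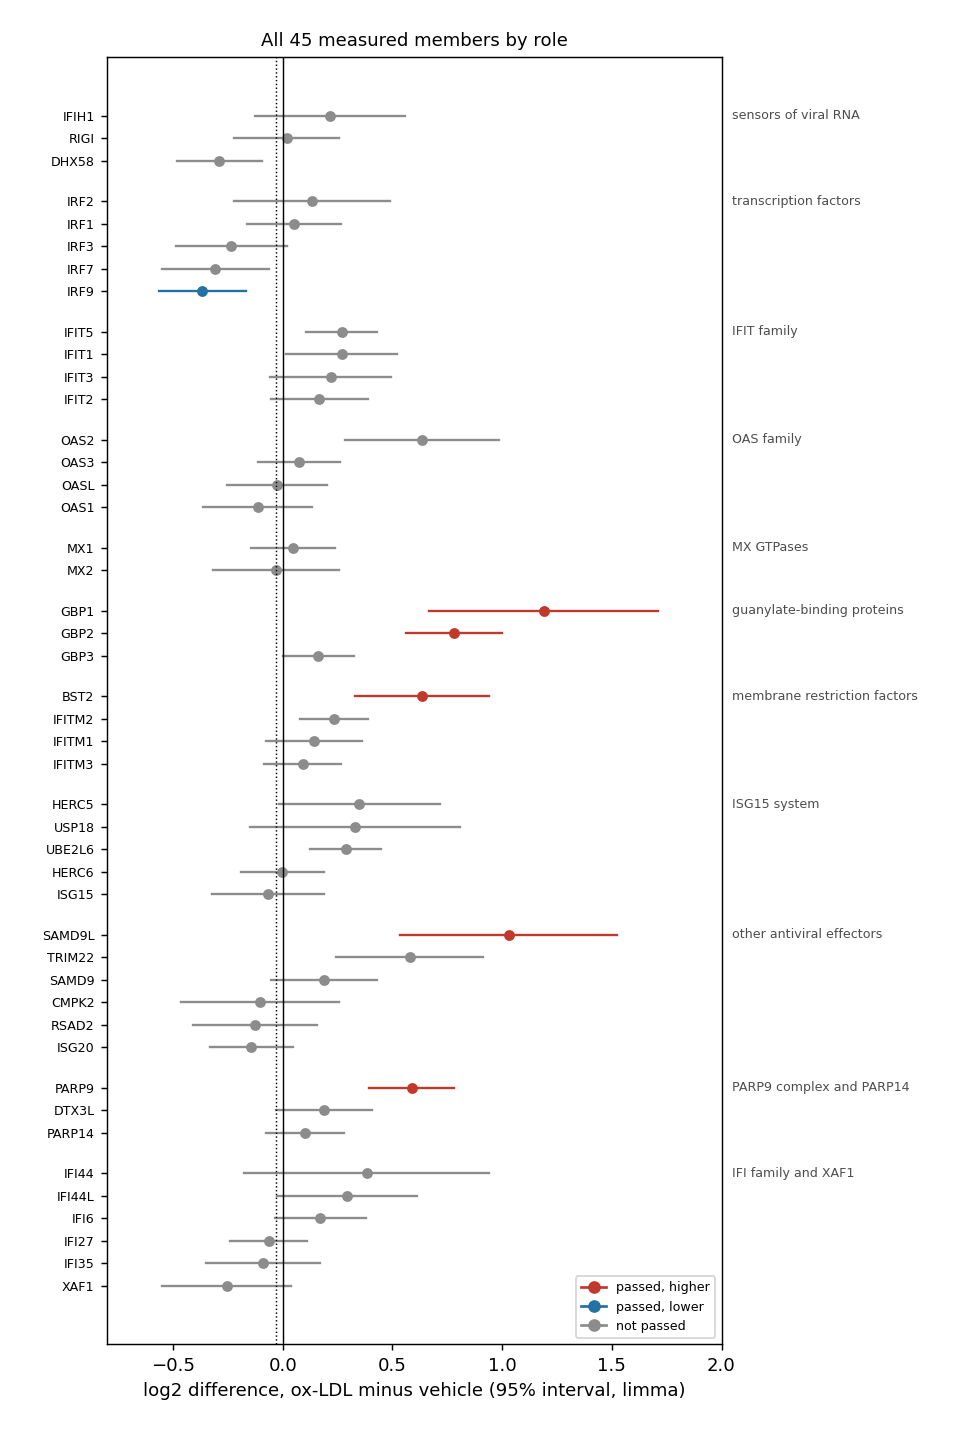
Log2 difference (ox-LDL minus vehicle, horizontal axis) of each of the 45 measured members with its 95% confidence interval from limma, grouped by role; red and blue mark genes that passed, and the dotted line is the median of all probe sets (-0.03). GBP1, GBP2, SAMD9L, BST2 and PARP9 stand to the right and IRF9 to the left, while most members lie near 0.

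The third vehicle array was the lowest of the 3 vehicle arrays in 26 of the 45 members (57.8%), against 37.9% of all probe sets. The median level of the members was 7.87, 7.87 and 7.74 with vehicle and 8.05, 8.08 and 7.99 with ox-LDL. Without the third vehicle array the members' median difference was 0.09 and the median of all probe sets was -0.01. All 6 calls were made again in the same direction, and IFIT5 and UBE2L6 passed as well. This gave 7 higher and 1 lower (17.8% of the members). Over all probe sets 12.4% were then called, 6.76% as higher and 5.69% as lower. With an unmoderated t statistic GBP1, SAMD9L, BST2 and IRF9 did not pass. The part of this array in the members' results was otherwise not tested.

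**Figure D2:**
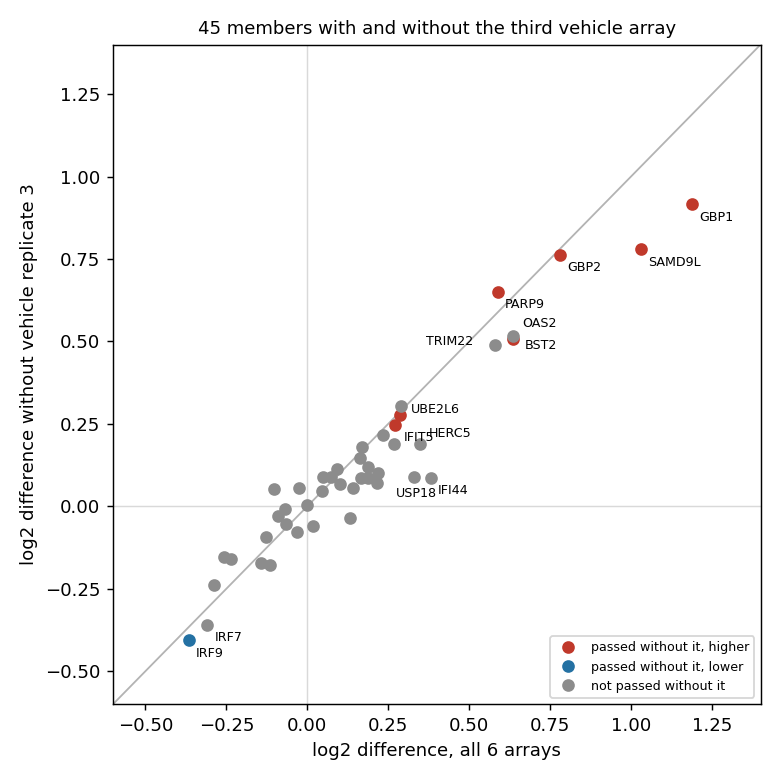
Log2 difference of each of the 45 members with all 6 arrays (horizontal axis) against that without vehicle replicate 3 (vertical axis); the diagonal marks equal values and colours mark the genes that passed without it. GBP1 (1.19 and 0.92) and SAMD9L (1.03 and 0.78) lie below the diagonal, PARP9 (0.59 and 0.65) above it, and IFI44 and USP18 come close to 0 without that array.

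Among the 3 guanylate-binding proteins measured, 2 rose. GBP1 had log2 values of 7.20, 7.34 and 6.45 with vehicle and 8.17, 8.18 and 8.21 with ox-LDL. The ox-LDL arrays were almost level and all lay above the vehicle arrays, of which the third was by far the lowest. The mean went from 6.996 ± 0.48 to 8.19 ± 0.02 (SD, n = 3 each), a log2 difference of 1.19 (SE 0.22, 95% confidence interval 0.67 to 1.71, limma adjusted p = 0.0268), and of 0.92 without vehicle replicate 3. GBP2 had values of 7.35, 7.09 and 7.17 with vehicle and 7.93, 8.06 and 7.95 with ox-LDL, again without overlap but with no vehicle array apart from the others. Its difference was 0.78 (SE 0.09, 95% confidence interval 0.56 to 0.999, limma adjusted p = 0.00583), and 0.76 without vehicle replicate 3. GBP3, which lies beside GBP1 on chromosome 1, had a difference of 0.16 (SE 0.07, limma adjusted p = 0.191), with 9.99, 10.01 and 9.96 in vehicle and 10.20, 10.14 and 10.11 with ox-LDL. The GBP genes are close copies of each other, so a probe set may read more than 1 of them. The GBP2 call held without any 1 array (adjusted p from 0.00875 to 0.0446). The GBP1 call was lost without vehicle replicate 1 (adjusted p = 0.0550) and without ox-LDL replicate 1, 2 or 3 (0.110, 0.112 and 0.109).

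SAMD9L and SAMD9 are neighbouring paralogues on chromosome 7 and both restrict viral translation. SAMD9L had log2 values of 7.07, 6.95 and 6.26 in vehicle and 7.72, 7.92 and 7.72 with ox-LDL. All ox-LDL arrays were higher, and the third vehicle array was the lowest. The difference was 1.03 (SE 0.21, 95% confidence interval 0.54 to 1.52, limma adjusted p = 0.0352), and 0.78 without vehicle replicate 3. SAMD9 had values of 8.57, 8.58 and 8.27 and then 8.67, 8.63 and 8.69, a difference of 0.19 (SE 0.10, limma adjusted p = 0.283) that was 0.09 without vehicle replicate 3. The SAMD9L call was lost without vehicle replicate 2 (adjusted p = 0.0671) and without ox-LDL replicate 1, 2 or 3 (0.125, 0.144 and 0.118).

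Among the membrane proteins that restrict virus entry or release, 1 of 4 rose. BST2 had values of 7.52, 7.60 and 7.18 in vehicle and 8.05, 8.19 and 7.96 with ox-LDL, with no overlap between groups. Its mean went from 7.43 ± 0.23 to 8.07 ± 0.12 (SD, n = 3 each), a difference of 0.64 (SE 0.13, 95% confidence interval 0.33 to 0.94, limma adjusted p = 0.0352), and of 0.51 without vehicle replicate 3. The call was lost without any 1 array other than the third vehicle array, with adjusted p of 0.0686 and 0.0517 when vehicle replicate 1 or 2 was left out, and of 0.133, 0.147 and 0.0998 when an ox-LDL replicate was. The IFITM proteins, which stiffen membranes against virus fusion, had differences of 0.14 (IFITM1), 0.23 (IFITM2) and 0.09 (IFITM3), with limma adjusted p of 0.358, 0.0847 and 0.457. They were bright on every array, from 9.59 for IFITM1 on the third vehicle array to 12.45 for IFITM3 on the first ox-LDL array. They are near-identical copies, so their 3 values are uncertain and not separate evidence.

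PARP9 and DTX3L form a complex and are neighbours on chromosome 3, transcribed in opposite directions. PARP9 had values of 8.07, 8.11 and 8.28 in vehicle and 8.78, 8.72 and 8.73 with ox-LDL. Here the third vehicle array was the highest of its group, so the groups lay further apart without it. The difference was 0.59 (SE 0.08, 95% confidence interval 0.39 to 0.78, limma adjusted p = 0.0102), and 0.65 without vehicle replicate 3. DTX3L had a difference of 0.19 (SE 0.09, limma adjusted p = 0.247) and PARP14, another macrodomain ADP-ribosyltransferase, one of 0.10 (SE 0.07, limma adjusted p = 0.417). The PARP9 call was lost without ox-LDL replicate 1, 2 or 3 (adjusted p = 0.0664, 0.0622 and 0.0631). The study's own selection, a p at or below 0.001 (taken here as unadjusted) with a change of at least 1.5-fold, took 2.31% of all probe sets and, among the members, GBP2 and PARP9. Whether neighbours such as SAMD9L and SAMD9, or PARP9 and DTX3L, differed in their response was not tested.

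**Figure D3:**
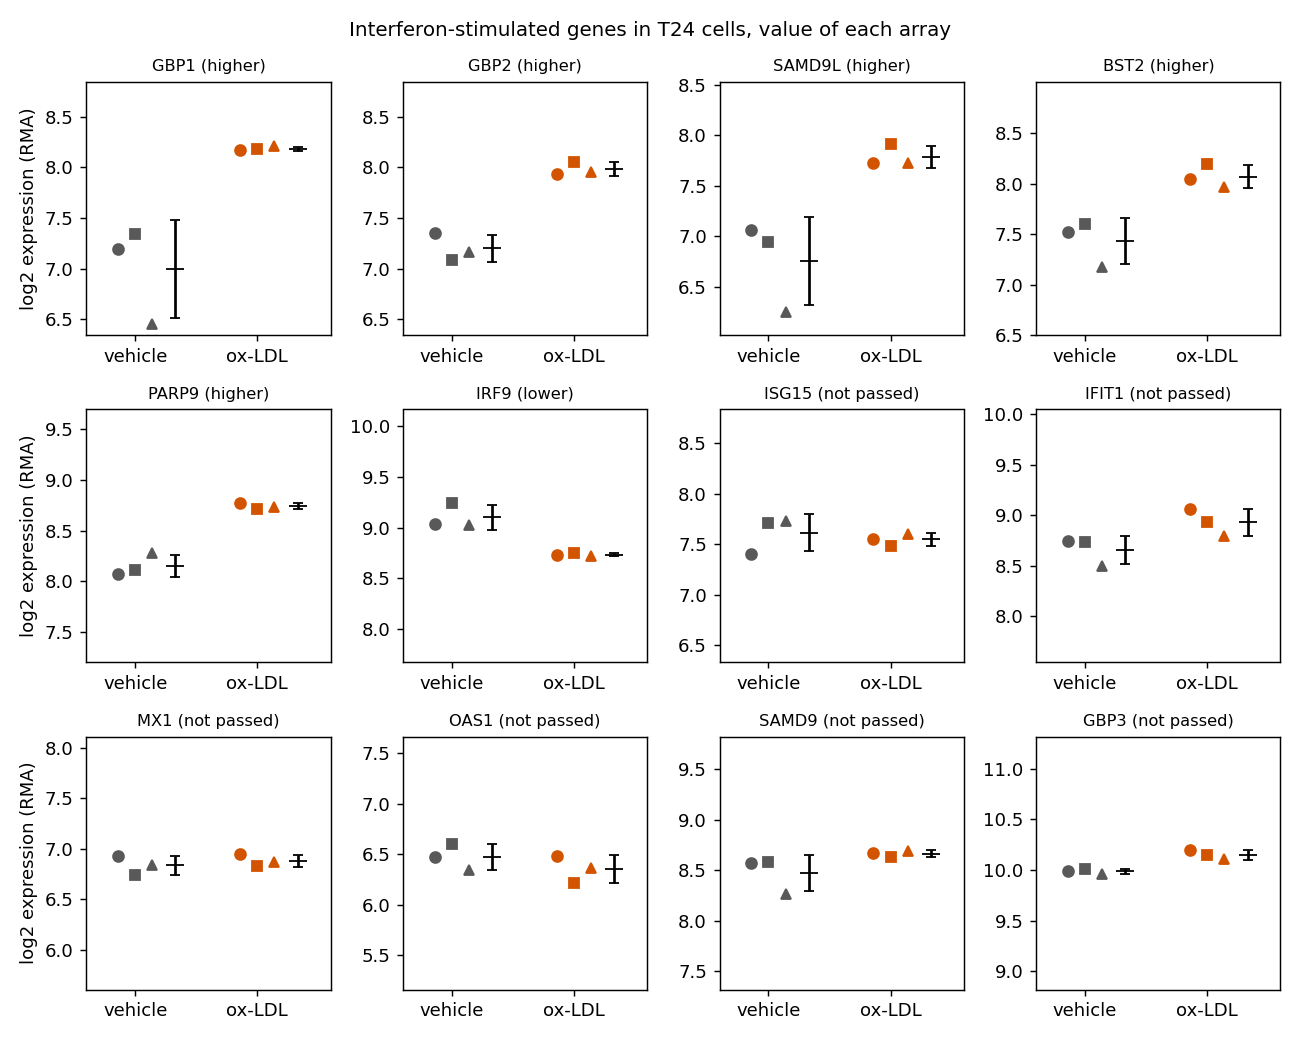
Log2 expression (vertical axis, each panel spanning 2.5 units) of 12 members on each array; circles, squares and triangles are replicates 1, 2 and 3, grey for vehicle and orange for ox-LDL, and the bar beside them is the mean with its SD (n = 3). The 6 genes that passed are without overlap between groups, and so are IFIT1, SAMD9 and GBP3, which did not pass. ISG15, MX1 and OAS1 overlap. Over all probe sets, the ox-LDL arrays all lay above the vehicle arrays in 19.1% and all below in 17.7%. The third vehicle array is low for GBP1, SAMD9L and BST2.

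Transcription factors of the response were the role in which a member fell. IRF9 had values of 9.04, 9.24 and 9.02 in vehicle and 8.73, 8.75 and 8.72 with ox-LDL, all 3 of the latter lower. Its difference was -0.37 (SE 0.08, 95% confidence interval -0.57 to -0.17, limma adjusted p = 0.0499), at the edge of the threshold, and -0.41 without vehicle replicate 3. The call was lost with equal array medians (adjusted p = 0.0756), without vehicle replicate 1 or 2 (0.0796 and 0.103) and without ox-LDL replicate 1, 2 or 3 (0.173, 0.174 and 0.175). IRF7, the factor that amplifies interferon production, had values of 6.91, 6.97 and 6.79 and then 6.76, 6.52 and 6.46, a difference of -0.31 (SE 0.10, limma adjusted p = 0.123). IRF3, which starts interferon production after sensing, had a difference of -0.23 (limma adjusted p = 0.218). IRF1, an activator that is itself induced by interferon gamma, and IRF2, its competitor at the same sites, had differences of 0.05 and 0.13 (limma adjusted p = 0.745 and 0.587); that of IRF2 was -0.03 without vehicle replicate 3.

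None of the 3 cytosolic sensors of viral RNA passed in limma or with an unmoderated t statistic, and 1 had an unadjusted p under 0.05. RIGI, which recognises RNA with a free triphosphate end, had a difference of 0.02 (95% confidence interval -0.22 to 0.26), and -0.06 without vehicle replicate 3. IFIH1, also called MDA5, which binds long double-stranded RNA, had a difference of 0.21, or 0.07 without vehicle replicate 3. DHX58, also called LGP2, which tunes both sensors, had values of 7.54, 7.63 and 7.74 and then 7.35, 7.29 and 7.40, all lower with ox-LDL, and a difference of -0.29 (SE 0.08, limma adjusted p = 0.0863).

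Of the 4 IFIT genes, whose proteins bind foreign RNA ends and block their translation, none passed in limma, 1 (IFIT5) passed with an unmoderated t statistic and 2 had an unadjusted p under 0.05. Their differences were all above 0 and close together, at 0.27 for IFIT1, 0.17 for IFIT2, 0.22 for IFIT3 and 0.27 for IFIT5. IFIT5 had values of 7.87, 7.87 and 7.80 in vehicle and 8.12, 8.08 and 8.15 with ox-LDL (SE 0.07, limma adjusted p = 0.0649), and passed without vehicle replicate 3 (adjusted p = 0.0444). The third vehicle array was the lowest for all 4, and without it the differences of IFIT1, IFIT2 and IFIT3 were 0.19, 0.09 and 0.10. The IFIT genes lie together on chromosome 10.

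The OAS enzymes make the 2'-5' oligoadenylate that activates RNase L. None of the 4 passed in limma or with an unmoderated t statistic, and 1 had an unadjusted p under 0.05. OAS2 had values of 5.35, 5.49 and 5.07 in vehicle and 6.15, 5.94 and 5.73 with ox-LDL, without overlap and close to the negative control level of 5.21. Its difference was 0.64 (SE 0.15, limma adjusted p = 0.0525), and it passed with an intensity trend and robust fit (adjusted p = 0.0348). OAS1 and OAS3, its neighbours on chromosome 12, had differences of -0.11 and 0.07, and OASL, a relative without the enzyme activity, one of -0.03. The dynamin-like GTPases MX1 and MX2, which trap viral nucleocapsids, had differences of 0.05 (95% confidence interval -0.15 to 0.24) and -0.03 (95% confidence interval -0.32 to 0.26); neither passed in limma or with an unmoderated t statistic, and neither had an unadjusted p under 0.05.

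In the ISG15 system, which attaches a ubiquitin-like protein to other proteins, none of 5 passed in limma, 1 (UBE2L6) passed with an unmoderated t statistic and 1 had an unadjusted p under 0.05. ISG15, the modifier itself, had values of 7.40, 7.71 and 7.73 in vehicle and 7.56, 7.48 and 7.61 with ox-LDL, which overlapped (difference -0.07, 95% confidence interval -0.32 to 0.19). UBE2L6, its conjugating enzyme, had tight values of 9.42, 9.40 and 9.38 and then 9.73, 9.69 and 9.64. Its difference was 0.29 (SE 0.07, limma adjusted p = 0.0551), and it passed without vehicle replicate 3 (adjusted p = 0.0365). HERC5, its ligase, had values of 7.83, 7.53 and 7.20 and then 7.90, 7.89 and 7.82, a difference of 0.35 that was 0.19 without vehicle replicate 3. USP18, which removes ISG15 and also damps interferon receptor signalling, had values of 5.92, 5.96 and 5.22 and then 6.06, 6.13 and 5.89. Its groups overlapped, and its difference of 0.33 was 0.09 without vehicle replicate 3. HERC6, a relative of HERC5, had a difference of 0.00.

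The remaining effectors differed in size and direction. TRIM22, a ubiquitin ligase that restricts several viruses, had values of 5.24, 5.05 and 4.87 in vehicle and 5.88, 5.55 and 5.47 with ox-LDL, without overlap (difference 0.58, SE 0.14, limma adjusted p = 0.0584). RSAD2, also called viperin, which makes a chain-terminating nucleotide, and CMPK2, the kinase encoded beside it on chromosome 2, lay at or below the negative control level in both groups, with differences of -0.13 and -0.10. ISG20, an exonuclease of viral RNA, had a difference of -0.14.

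IFI44 and IFI44L, induced proteins of unsettled function, are neighbours on chromosome 1. IFI44 had values of 7.99, 7.88 and 7.05 in vehicle and 7.99, 8.01 and 8.06 with ox-LDL, and its difference was 0.38 with all arrays and 0.09 without vehicle replicate 3. IFI44L had values of 4.81, 4.75 and 4.81 and then 5.39, 4.96 and 4.90, at or below the negative control level on average in both groups (difference 0.29, SE 0.13, limma adjusted p = 0.224). IFI6 and IFI27, mitochondrial proteins linked to cell survival and death, had differences of 0.17 and -0.06, IFI35 one of -0.09 and XAF1, an antagonist of apoptosis inhibitors, one of -0.26. Of these 6 none passed in limma or with an unmoderated t statistic, and none had an unadjusted p under 0.05.

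The DNA upstream of the members' start sites is shown for the 3 passing genes with a single annotated start and a matching motif, and for ISG15 and IFIT1, 2 standard interferon reporters that did not pass. Sequences are from RefSeq (GRCh38.p14) and run 5' to 3' on the gene's strand over the 250 bases before the start. The windows are chr1:89065209-89065458 on the minus strand for GBP1, chr19:17405631-17405880 on the minus strand for BST2, chr14:24161015-24161264 on the plus strand for IRF9, chr1:1013247-1013496 on the plus strand for ISG15 and chr10:89392373-89392622 on the plus strand for IFIT1. In the RefSeq annotation these bases are upstream of the named gene; the GBP1 window also falls within the span of LOC105378841, the BST2 window within those of BISPR and MVB12A, and the IFIT1 window within that of LIPA. Capitals mark letters of the ISRE core (GAAA, any 2 bases, then GAAA, on either strand) or of the GAS (TTCNNNGAA, which reads the same on both strands).
GBP1: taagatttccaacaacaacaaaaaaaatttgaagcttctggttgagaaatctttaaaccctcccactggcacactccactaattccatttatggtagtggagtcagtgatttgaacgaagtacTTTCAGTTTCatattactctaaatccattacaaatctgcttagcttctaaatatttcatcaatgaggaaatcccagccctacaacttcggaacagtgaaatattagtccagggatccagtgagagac
BST2: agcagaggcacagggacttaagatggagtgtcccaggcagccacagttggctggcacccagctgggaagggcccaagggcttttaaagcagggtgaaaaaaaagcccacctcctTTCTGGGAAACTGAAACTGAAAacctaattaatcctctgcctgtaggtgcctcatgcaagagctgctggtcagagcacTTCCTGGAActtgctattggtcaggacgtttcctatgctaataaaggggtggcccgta
IRF9: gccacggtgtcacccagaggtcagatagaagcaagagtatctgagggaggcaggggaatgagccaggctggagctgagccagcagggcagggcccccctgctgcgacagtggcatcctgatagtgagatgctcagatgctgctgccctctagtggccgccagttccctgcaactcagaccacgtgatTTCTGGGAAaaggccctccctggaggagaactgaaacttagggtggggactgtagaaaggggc
ISG15: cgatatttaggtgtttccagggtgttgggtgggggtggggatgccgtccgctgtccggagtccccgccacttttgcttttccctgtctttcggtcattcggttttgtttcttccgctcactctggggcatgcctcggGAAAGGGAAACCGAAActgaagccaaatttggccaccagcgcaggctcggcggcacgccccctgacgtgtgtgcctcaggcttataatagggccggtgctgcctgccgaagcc
IFIT1: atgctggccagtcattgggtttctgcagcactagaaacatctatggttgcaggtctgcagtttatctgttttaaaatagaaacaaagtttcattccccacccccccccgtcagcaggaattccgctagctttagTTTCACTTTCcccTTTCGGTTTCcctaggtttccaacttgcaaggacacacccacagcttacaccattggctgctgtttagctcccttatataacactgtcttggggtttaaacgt

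GBP1 had 1 ISRE match, which ended 117 bases before the start, and no GAS match. BST2 had 2 overlapping ISRE matches, ending 120 and 114 bases before the start, of which the one farther from the start also overlapped a GAS match, and a further GAS match lay closer to the start. IRF9 had 1 GAS match and no ISRE match. ISG15 had 2 overlapping ISRE matches, 103 and 97 bases before the start, and IFIT1 had 2 separate ones, 106 and 93 bases before it. ISRE letters were thus found before genes that rose and before genes that did not pass.

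Promoter entries were found for 33 of the 45 measured members, in 44 windows because 9 genes had several starts; those not matched were DHX58, GBP2, IFIT2, IFITM2, IRF2, IRF3, IRF7, MX2, OAS2, OASL, TRIM22 and USP18. An ISRE match was present in 24 of the 44 windows, against 3.02% of all 35116 windows of that length, and a GAS match in 11 of 44, against 6.57%. By gene, 21 members had an ISRE match, 10 a GAS match, 5 both and 7 neither. Among the 21 with an ISRE match 3 rose (BST2, GBP1 and PARP9), with a median log2 difference of 0.19 and a range from -0.14 to 1.19. Among the 12 without one, SAMD9L rose and IRF9 fell, with a median of 0.01 and a range from -0.37 to 1.03. A match is a run of letters and not a measured binding site, and the differences between these groups were not tested.

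The wider pathway was described with 5 further gene lists. Beside their counts, 6.77% of all probe sets were called, and 5598 of the 21448 had an unadjusted limma p under 0.05. Of 20 interferon genes measured none passed in limma or with an unmoderated t statistic, 2 had an unadjusted p under 0.05 and 14 lay at or below the negative control level in both groups. IFNB1, the first interferon made after viral sensing, was among these 14 with values between 4.24 and 4.69 and a difference of 0.02. Of 14 receptor and JAK-STAT signalling genes none passed in limma or with an unmoderated t statistic, and 3 had an unadjusted p under 0.05. The type I receptor chains IFNAR1 and IFNAR2 had differences of 0.06 and -0.06, and the kinases TYK2 and JAK1 of 0.03 and -0.20 (limma adjusted p = 0.617, 0.763, 0.817 and 0.132). Of 6 other interferon regulatory factors and their partners none passed in limma or with an unmoderated t statistic, and 1 had an unadjusted p under 0.05.

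Of 13 nucleic acid sensing genes, 1 fell and 12 did not pass. The share that passed was 7.69%, against 6.77% of all probe sets, and so lay near the background. STING1, the adaptor of cytosolic DNA sensing, had values of 9.33, 9.24 and 9.44 in vehicle and 8.95, 9.002 and 8.86 with ox-LDL, without overlap (difference -0.40, SE 0.08, limma adjusted p = 0.0377). It passed without vehicle replicate 3 and lost the call without any 1 other array. TLR3, the endosomal sensor of double-stranded RNA, is named after its values were seen: it had 6.86, 7.02 and 5.63 in vehicle and 7.89, 7.69 and 7.76 with ox-LDL. Its difference of 1.27 (SE 0.34, limma adjusted p = 0.0756) was 0.84 without the third vehicle array, where it passed (adjusted p = 0.00525).

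Among 57 other interferon-stimulated genes, 4 rose (7.02%, against 3.48% of all probe sets) and 4 fell (7.02%, against 3.29%), with a median log2 difference of 0.24. The 4 that rose were APOL1, the trypanosome-lytic apolipoprotein (1.07), its neighbour APOL2 (0.59), the ubiquitin ligase adaptor TRIM14 (0.48) and ZC3HAV1, the zinc-finger antiviral protein (0.42). The 4 that fell were SLFN5, a Schlafen family protein (-1.34), LAMP3, a lysosomal membrane protein of mature dendritic cells (-1.26), the tryptophanyl-tRNA synthetase WARS1 (-0.80) and the cytidine deaminase APOBEC3G (-0.55). SLFN5 had values of 10.72, 10.64 and 10.64 in vehicle and 9.39, 9.34 and 9.27 with ox-LDL, far apart and tight within each group (SE 0.07, limma adjusted p = 0.000454). LAMP3 had values of 7.32, 6.96 and 7.11 and then 5.88, 5.83 and 5.90, likewise far apart. APOL1, TRIM14, ZC3HAV1 and APOBEC3G are named after their values were seen, the others by the rule for named genes. The number that rose was 11 without vehicle replicate 3, 3 and 2 when vehicle replicate 1 or 2 was left out, and 1, 0 and 0 when ox-LDL replicate 1, 2 or 3 was; the number that fell was 5 without vehicle replicate 3 and 3 without any 1 other array. Over all probe sets, 6.76% were called as higher and 5.69% as lower without vehicle replicate 3. Without vehicle replicate 1 or 2, 3.76% and 3.35% were called in either direction, and 1.42% to 1.56% without an ox-LDL array. Without vehicle replicate 3 the list's median was 0.07.

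**Figure D4:**
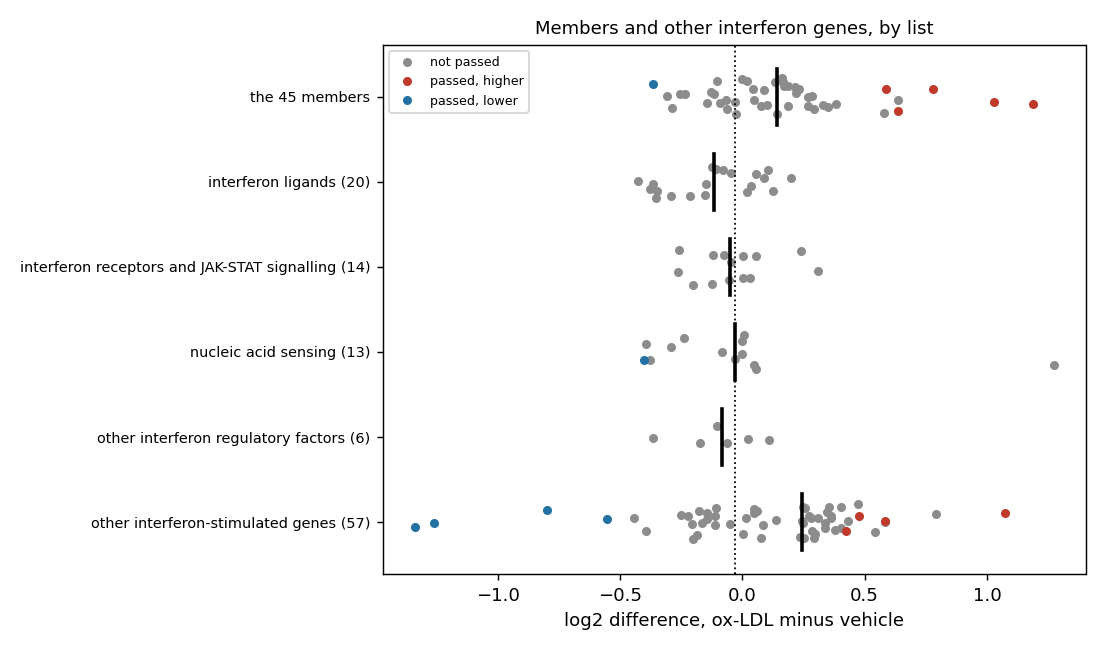
Log2 difference (ox-LDL minus vehicle, horizontal axis) of each measured gene of the 45 members and of the 5 further lists, with the number measured in brackets; black bars are list medians, the dotted line is the median of all probe sets (-0.03), and vertical scatter within a list is random. Medians were 0.14 for the members and 0.24 for other interferon-stimulated genes. They were -0.12 for interferon ligands, -0.05 for receptors and signalling, -0.03 for nucleic acid sensing and -0.08 for other regulatory factors. Without vehicle replicate 3 the medians were, in the same order, 0.09, 0.07, -0.07, -0.09, -0.10 and -0.20. Of the 20 ligands, 14 lay at or below the negative control level in both groups. Differences between the lists were not tested.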

How the data were processed

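Each sample was hybridised to 1 array, using biotinylated single-stranded cDNA from 500 ng of total RNA, per the labels' protocols. The deposited values are log2 expression from RMA, per the submitters' processing notes; the RMA settings and genome build were not given in the sources used here. RMA makes arrays alike in distribution and pulls values near background together. The table held 24350 probe sets, of which 2902 controls were left out. Of the 21448 tested, 17709 had 1 gene symbol, and 3739 were matched to no single gene symbol. For 20 genes with several probe sets the brightest was used. Groups followed the titles. All arrays entered 1 limma fit (lmFit and eBayes, limma 3.58.1, R 4.3.3), called at an adjusted p under 0.05; the procedure was tested on simulated data. Figures used matplotlib 3.10.9. No depth applies to arrays; their number limits precision.

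The members and lists were chosen with earlier results of these data known. All 45 members are named, with values of each array for those that passed and the 10 others with the largest difference, plus examples; from each further list up to 4 passing genes with the smallest p, EHMT2, and IFNAR1, IFNAR2, JAK1, TYK2 and IFNB1 whatever their values. Alternatives were, for scaling, cyclic loess, equal array medians or a second quantile normalization; for the fit, brighter probe sets alone, array weights, an intensity trend (robust), the unmoderated t statistic, a block on replicate number or the study's selection; and leaving out each array.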

Additional observations from a re-analysis of the deposited data

How the results depend on the processing

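With all arrays, 5 members rose and 1 fell, 1451 probe sets were called, 4 other interferon-stimulated genes rose and 4 fell, and of the ligand, signalling, sensing and regulatory factor lists 0 rose and 1 fell. GBP2 and PARP9 passed under each of the 8 other fits with all arrays and in the study's selection. With 1 array left out, the members that rose numbered 1 to 7 and those that fell 0 to 1, probe sets called 305 to 2670, other interferon-stimulated genes that rose 0 to 11 and fell 3 to 5, and genes of the 4 remaining lists that rose 0 to 1 and fell 0 to 2. Of members that rose and of probe sets called, the lowest counts came without an ox-LDL array and the highest without vehicle replicate 3. The share of members called then ran from 2.22% to 17.8%, against 1.42% to 12.4% of all probe sets. Among the 10724 probe sets above the median level, 33 of them members, 8 members rose and 2 fell (30.3% of those tested), beside 2608 probe sets called (24.3%). There 11 other interferon-stimulated genes were higher and 4 lower, with 2 genes of the remaining lists each way. With an intensity trend and robust fit, 9 members rose and 1 fell (22.2%), of 2649 calls (12.4% of all probe sets). There 12 other interferon-stimulated genes were higher and 5 lower, with 2 of the remaining lists each way. With array weights, 10 members rose and 3 fell (28.9%), of 3962 calls (18.5% of all probe sets). There 18 other interferon-stimulated genes were higher and 5 lower, and 2 of the remaining lists rose and 5 fell. No member fell with equal array medians. None fell with an unmoderated t statistic, where 5 members rose (11.1%, against 5.07% of all probe sets called) and the remaining lists had 0 lower. Of these 5 members 2 were shared with the main result (GBP2 and PARP9), the others being IFIT5, IFITM2 and UBE2L6. The study's selection took 2 members higher and 0 lower, of 496 probe sets (2.31%). It took 1 other interferon-stimulated gene higher and 3 lower, and 0 lower in the remaining lists. The cause of these differences was not tested.

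The deviations of same-numbered arrays from their group means correlated at -0.0061, 0.030 and 0.020. With 3 arrays in each group such values cannot settle whether the replicate numbers pair the samples. With the replicate number as a block 4 members rose and 0 fell (8.89%), of 550 probe sets called (2.56%). GBP2, BST2 and PARP9 passed again, TRIM22 passed (adjusted p = 0.0432), and GBP1 (0.0524), SAMD9L (0.0507) and IRF9 (0.111) did not. There 2 other interferon-stimulated genes were higher and 3 lower, and 0 of the remaining lists were lower.

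Members near 0 changed sign, none of them called. RIGI was at -0.018 after a second quantile normalization, -0.046 after cyclic loess, -0.0046 with array weights and between -0.058 and 0.10 with 1 array left out. MX2 was at 0.00028 with equal array medians, 0.045 after a second quantile normalization, 0.075 after cyclic loess and between -0.14 and 0.066 with 1 array left out. OASL was at 0.0041 with equal array medians, 0.027 with array weights and between -0.089 and 0.057 with 1 left out. HERC6 was at 0.029 with equal array medians, 0.021 with array weights and between -0.048 and 0.046 with 1 left out. With array weights IRF2 was at -0.0096, CMPK2 at 0.096 and IFI35 at 0.0077. With 1 array left out IRF1 lay between -0.014 and 0.10, IRF2 between -0.034 and 0.22, MX1 between -0.0023 and 0.092, and CMPK2 between -0.25 and 0.053. The cause was not tested. Dim members, such as RSAD2, CMPK2 and IFI44L, are limited by signal over background.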

Other observations

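The genes that flank the 6 passing members along the chromosome, in the order of the RefSeq annotation and among measured protein-coding genes, comprised 7 that are not members: RNF31 and REC8 beside IRF9, GBP7 beside GBP2, PLVAP and TMEM221 beside BST2, HEPACAM2 beside SAMD9L and KPNA1 beside PARP9. None of the 7 passed in limma or with an unmoderated t statistic, and none had an unadjusted p under 0.05. Over all probe sets 6.77% were called in limma, and 5598 of the 21448 had an unadjusted limma p under 0.05. With 7 genes, no call at all is close to that share. GBP7, PLVAP and HEPACAM2 lay at or below the negative control level in both groups. The log2 differences of the 7 ran from -0.13 for REC8 to 0.13 for GBP7. The members they flank, at -0.37 to 1.19, were taken because they passed, so their wider range was fixed in advance. Whether neighbouring genes respond apart from these members was not tested. RNF31, a ubiquitin ligase subunit encoded directly beside IRF9, had 7.59, 7.78 and 7.66 in vehicle and 7.53, 7.55 and 7.58 with ox-LDL, a difference of -0.12.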
